A study of Mus musculus with 12 samples.

Results

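Interferon-stimulated genes were followed in sorted mouse T cells, as 39 genes that respond to type I interferon or, for Gbp2, Gbp3, Iigp1, Igtp and Irgm1, lean to interferon-gamma. A member was read from the probe set annotated with its symbol alone, and from the one with the highest mean over the 12 arrays where there were several. Of the 39 members, out of 22184 genes named on the array, 35 had such a probe set and 34 passed the filter on dim probe sets, 30 of them type I-leaning and 4 interferon-gamma-leaning. Oas1a, Gbp2 and Dtx3l were measured only by probe sets that carry a second gene symbol, Ifi44 was not analysed here, and Mx1, an antiviral GTPase, had a mean of log2 3.12 and was not tested.

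The study asked whether CD4 and CD8 T cells answer linoleic acid, a polyunsaturated fatty acid, in different ways. Whole mouse splenocytes were held in culture for 24 h in medium with linoleic acid at 50 µM or in medium without it, and CD4 or CD8 T cells were then sorted and their total RNA was hybridised to single-colour Affymetrix MoGene-2_0-st arrays. The 4 groups, with 3 arrays each, were CD8 T cells of linoleic acid cultures, CD8 T cells of control cultures, CD4 T cells of linoleic acid cultures and CD4 T cells of control cultures. The sources used here name no strain, age or genotype of the mice and do not say whether a replicate was a separate animal or culture, so each p-value measures only the spread between these samples.

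Interferons bind receptors that switch on Janus kinases. Type I interferon then acts through a complex that contains STAT2 and IRF9 and binds the interferon-stimulated response element (ISRE), whereas interferon-gamma acts on gamma-activated sites (GAS). The genes switched on include sensors of foreign RNA and DNA, the IFIT and OAS families, which act on viral RNA, and GTPases that attack intracellular pathogens, and T cells hold a tonic level of many of them without infection.

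The stretches before the transcription start of members on which the results turn are printed here, from RefSeq on build GRCm38.p6, 5′ to 3′ on the gene's own strand. Each runs over 140 bases, up to the base before the start except for Stat2, whose stretch covers the bases 250 to 111 before it. Capitals mark matches to the ISRE core, spelled GAAA, then any 2 bases, then GAAA, on either strand. Stat2, Ifih1, Ifit2, Oasl2 and Epsti1 are shown because they passed the test between the cell types in linoleic acid culture. Iigp1 passed as well, but no promoter sequence was available for it. The others were picked because they carry a match: Irgm1 and Igtp among members whose CD8 arrays all lay below the CD4 arrays, and Ifit1, Rsad2 and Oas3 among those with an unadjusted p under 0.05 for linoleic acid in 1 cell type. For Ifit2 the promoter source gives a pair of starts, and the stretch before the upstream one is printed. The gene record of Ifit2 begins earlier, at base 34550550, so that stretch lies inside it.
Stat2 (chr10:128270248-128270387, plus strand): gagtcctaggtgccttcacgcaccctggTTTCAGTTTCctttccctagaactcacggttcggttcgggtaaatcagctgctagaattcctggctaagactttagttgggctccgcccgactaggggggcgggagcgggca
Ifih1 (chr2:62646256-62646395, minus strand): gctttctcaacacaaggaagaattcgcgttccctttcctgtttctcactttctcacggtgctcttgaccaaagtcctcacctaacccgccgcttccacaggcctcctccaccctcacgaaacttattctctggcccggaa
Ifit2 (chr19:34550554-34550693, plus strand): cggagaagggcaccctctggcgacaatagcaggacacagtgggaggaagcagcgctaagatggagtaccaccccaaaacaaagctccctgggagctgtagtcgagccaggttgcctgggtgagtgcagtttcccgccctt
Oasl2 (chr5:114896794-114896933, plus strand): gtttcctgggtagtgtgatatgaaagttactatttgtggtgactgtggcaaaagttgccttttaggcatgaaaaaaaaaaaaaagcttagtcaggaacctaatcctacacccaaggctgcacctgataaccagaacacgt
Epsti1 (chr14:77904099-77904238, plus strand): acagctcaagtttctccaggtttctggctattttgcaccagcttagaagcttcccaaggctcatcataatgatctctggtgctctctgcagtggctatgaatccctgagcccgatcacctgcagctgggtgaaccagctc
Irgm1 (chr11:48871421-48871560, minus strand): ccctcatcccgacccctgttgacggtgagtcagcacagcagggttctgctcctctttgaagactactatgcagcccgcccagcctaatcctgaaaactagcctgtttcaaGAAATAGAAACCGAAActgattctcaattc
Igtp (chr11:58199416-58199555, plus strand): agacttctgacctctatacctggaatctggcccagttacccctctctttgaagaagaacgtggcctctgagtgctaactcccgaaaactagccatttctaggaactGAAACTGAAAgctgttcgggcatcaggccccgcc
Ifit1 (chr19:34640749-34640888, plus strand): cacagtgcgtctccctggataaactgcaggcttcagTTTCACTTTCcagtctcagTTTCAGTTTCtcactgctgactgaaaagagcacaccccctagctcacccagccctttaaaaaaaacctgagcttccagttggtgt
Rsad2 (chr12:26456453-26456592, minus strand): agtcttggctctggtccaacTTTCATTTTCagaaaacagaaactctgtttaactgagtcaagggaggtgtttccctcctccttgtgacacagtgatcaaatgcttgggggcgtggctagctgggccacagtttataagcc
Oas3 (chr5:120777660-120777799, minus strand): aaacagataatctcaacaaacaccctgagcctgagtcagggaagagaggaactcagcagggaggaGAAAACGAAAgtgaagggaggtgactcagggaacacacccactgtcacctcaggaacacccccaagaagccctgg

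Windows from 250 bases before to 50 after a start were available for 30 of the 39 members. Iigp1 and Parp14 were among those without one and were not searched. The ISRE core was found in 15 of these 30, against 3.99% of all genes with a window, and 1 of the 24 matches overlapped a GAS match. GAS, searched as TTCNNNGAA on both strands, was found in 8 of the 30, against 9.55% of all genes. The match began 222 bases before the start in Stat2, 120 in Rsad2, 104 and 85 in Ifit1, 75 in Oas3, 34 in Igtp, and 30 and 24 in Irgm1, where both matches overlap. Ifih1 had 1 match, 32 bases after the start and so outside its stretch. Ifit2, Oasl2 and Epsti1 had none in their windows, nor had Isg20, whose CD8 arrays also all lay below the CD4 arrays. These matches describe letters only.

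CD8 T cells differed from CD4 T cells in a small number of members, and the 6 that passed the test had the same direction in both cultures. Epsti1, an interferon-inducible gene named for epithelial-stromal interaction, was about 3-fold higher in CD8 T cells. Among the genes lower in CD8 T cells were Ifih1, which encodes the double-stranded RNA sensor MDA5, Stat2, the type I interferon transcription factor, Ifit2, Oasl2 and the GTPase Iigp1, by 1.72-fold to 2.03-fold in linoleic acid culture. In linoleic acid culture 6 of the 34 members passed the threshold of an adjusted p under 0.05 (limma, Benjamini-Hochberg over 14324 genes), 1 higher and 5 lower, against 2.03% of all genes tested, 0.719% higher and 1.31% lower. In control culture 2 of the 34 passed, 1 higher and 1 lower, against 1.95% of all genes, 1.03% higher and 0.929% lower.

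Epsti1 had log2 intensities of 10.08, 10.04 and 10.29 in CD8 and 8.39, 8.54 and 8.68 in CD4 T cells of the linoleic acid cultures, and of 10.05, 10.24 and 10.15 in CD8 and 8.51, 8.48 and 8.68 in CD4 T cells of the control cultures. Every CD8 array lay above every CD4 array. The log2 difference was 1.60 ± 0.12 in linoleic acid culture and 1.59 ± 0.12 in control culture (SE, n = 3 a group; limma adjusted p = 3.84e-06 and 3.15e-06), or 3.03-fold and 3.01-fold. Its linoleic acid minus control difference was -0.01 in CD8 and -0.02 in CD4 T cells.

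Ifih1 had 6.84, 7.04 and 6.78 in CD8 and 7.71, 7.94 and 7.72 in CD4 T cells with linoleic acid, and 7.24, 7.32 and 7.29 in CD8 and 7.91, 7.72 and 7.69 in CD4 T cells without it. The CD8 arrays were the lower ones in both cultures, with no overlap. The log2 difference was -0.90 ± 0.12 with linoleic acid (SE; limma adjusted p = 0.00058; 1.87-fold) and -0.49 ± 0.12 without it (adjusted p = 0.0557).

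Stat2 had 7.74, 8.03 and 7.36 in CD8 and 8.24, 8.70 and 8.54 in CD4 T cells with linoleic acid, a log2 difference of -0.78 ± 0.16 (limma adjusted p = 0.0235). In control culture its CD8 arrays stood at 8.09, 8.17 and 8.13 and its CD4 arrays at 8.30, 8.54 and 8.45, which gave -0.30 ± 0.16 (adjusted p = 0.652). The CD8 arrays were again all below the CD4 arrays, although in control culture the gap between the groups was small. Of the other genes of signalling and transcription, Irf7, which amplifies interferon production, differed by -0.32 with and -0.15 without linoleic acid, and Irf9, the DNA-binding partner of STAT2, by -0.23 and -0.15, and neither passed in either culture.

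Ifit2, whose product binds viral RNA and limits its translation, had 6.77, 6.45 and 6.54 in CD8 and 7.69, 7.33 and 7.17 in CD4 T cells with linoleic acid, and 6.90, 6.61 and 6.92 in CD8 and 7.83, 7.28 and 7.67 in CD4 T cells without it. It was the 1 member lower past the threshold in both cultures, at -0.81 ± 0.17 with and -0.79 ± 0.17 without linoleic acid (limma adjusted p = 0.0242 and 0.0291). The other IFIT genes did not follow it past the threshold: Ifit1 differed by -0.16 with and -0.40 without linoleic acid, and Ifit3 by 0.27 and -0.32.

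Oasl2, a 2′-5′-oligoadenylate synthetase-like gene, had 7.63, 8.38 and 8.35 in CD8 and 8.71, 9.31 and 9.40 in CD4 T cells with linoleic acid, a log2 difference of -1.02 ± 0.22 (limma adjusted p = 0.0253; 2.03-fold). In control culture it had 8.39, 8.81 and 8.88 in CD8 and 9.48, 9.41 and 9.38 in CD4 T cells, a difference of -0.73 ± 0.22 (adjusted p = 0.142). Its paralog Oas2, a synthetase of the RNase L pathway, differed by -1.06 ± 0.32 with and -0.98 ± 0.32 without linoleic acid, and did not pass (adjusted p = 0.148 and 0.208). Its arrays spread widely within a group, at 5.95, 6.67 and 6.74 in CD8 and 6.90, 7.96 and 7.68 in CD4 T cells with linoleic acid, and at 6.05, 7.11 and 7.03 in CD8 and 7.34, 7.98 and 7.83 in CD4 T cells without it. The arrays numbered 1 were the low ones in all 4 groups. Oas3 was set the other way in control culture, at 0.46 ± 0.15 (adjusted p = 0.207), and at 0.02 ± 0.15 in linoleic acid culture.

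The interferon-gamma-leaning GTPases had lower means in CD8 T cells for 4 of 4 tested members in both cultures, with a median log2 difference of -0.36 in linoleic acid culture and -0.34 in control culture, and 1 of 4 passed in linoleic acid culture and 0 of 4 in control culture. That gene was Iigp1, an immunity-related GTPase that loads onto parasite vacuoles in mice. It had 8.80, 8.60 and 8.98 in CD8 and 9.73, 9.59 and 9.62 in CD4 T cells with linoleic acid, and 9.26, 8.57 and 9.09 in CD8 and 10.13, 9.37 and 9.77 in CD4 T cells without it. The CD8 arrays did not reach the CD4 arrays in either culture, and the log2 difference was -0.86 ± 0.20 with and -0.79 ± 0.20 without linoleic acid (limma adjusted p = 0.0424 and 0.0688). Irgm1, a regulator of these GTPases, differed by -0.43 and -0.38, Igtp by -0.29 and -0.25, and Gbp3, a guanylate-binding protein, by -0.13 and -0.31, each first with and then without linoleic acid.

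**Figure D1:**
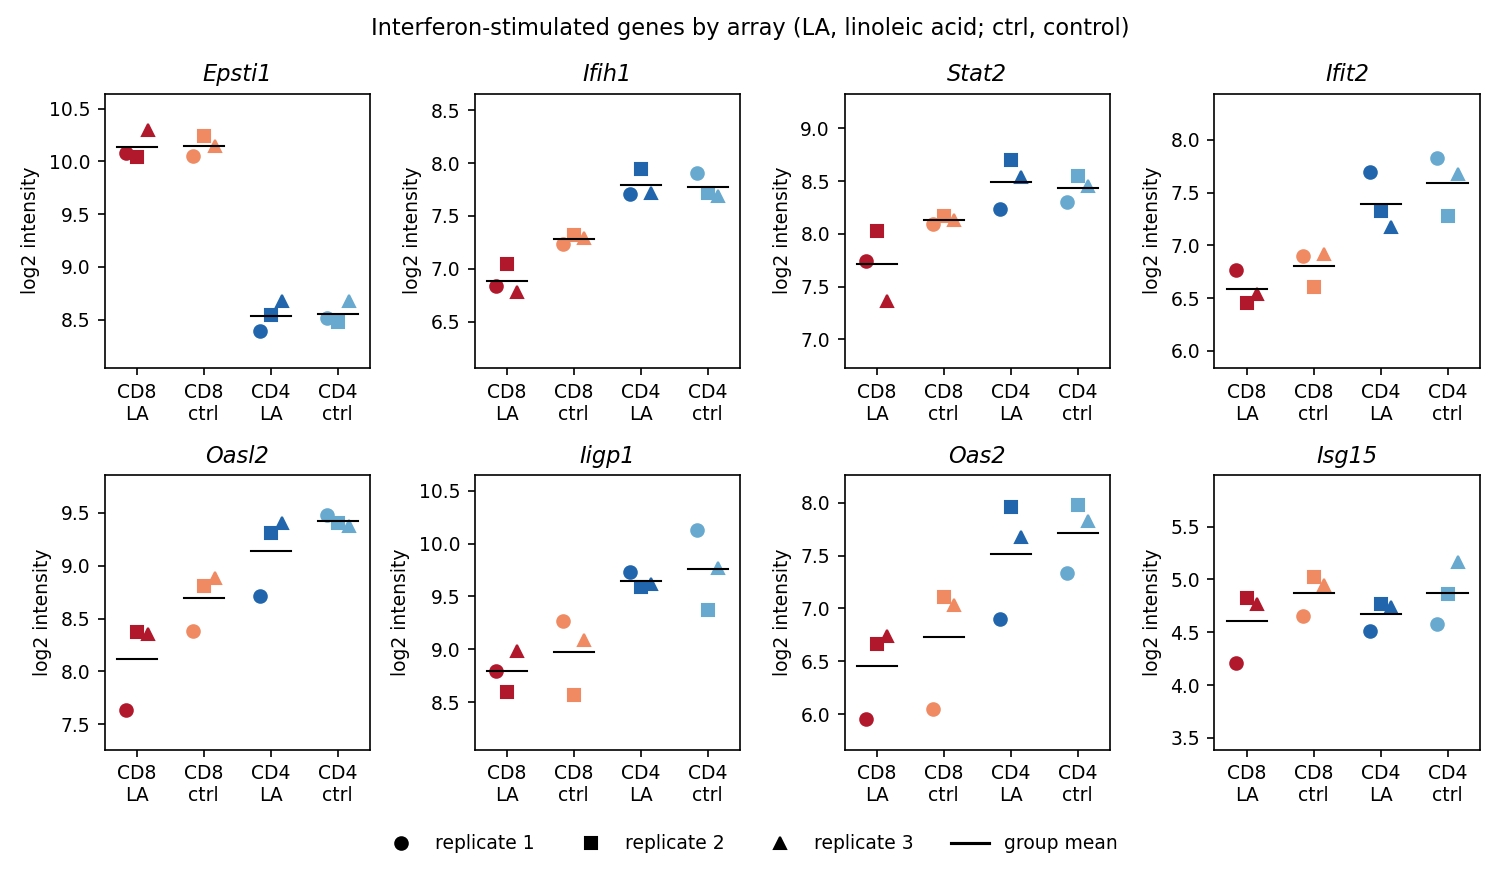
Log2 intensity of 8 members on each of the 12 arrays, with a horizontal line at each group mean and a marker shape for each replicate number; every panel spans the same number of log2 units. The CD8 arrays of Epsti1 lie above 10 and its CD4 arrays below 8.7, those of Ifih1, Stat2, Ifit2 and Iigp1 lie below the CD4 arrays of both cultures, and Isg15 shows no such split.

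Over the whole set, 24 of the 34 members had lower means in CD8 T cells in linoleic acid culture, with a median log2 difference of -0.18, against a median of -0.02 over all 14324 genes, of which 54.1% were lower. In control culture it was also 24 of 34, with a median of -0.15 against 0.00, where 49.6% of all genes were lower. Both directions therefore occurred among the members, and the medians were small beside the differences of the named genes. The sensors Dhx58, Eif2ak2 and Adar, the effectors Rsad2, Cmpk2 and Bst2, and Isg15, Usp18, Herc6, Oasl1, Trim30a, Parp9, Ifi35, Xaf1 and Rtp4 all lay between -0.27 and 0.17 in both cultures, and none of these passed. Samd9l, a growth-limiting antiviral gene, had 0.26 with and 0.11 without linoleic acid (adjusted p = 0.361 and 0.9). Isg15, the ubiquitin-like modifier, averaged log2 4.60 ± 0.34 in CD8 and 4.68 ± 0.14 in CD4 T cells with linoleic acid, and 4.87 ± 0.20 in CD8 and 4.87 ± 0.29 in CD4 T cells without it (SD, n = 3), which is below log2 5.12, the 95th percentile of 1391 chemosensory receptor genes taken as a gauge of array background.

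The comparisons in both cultures share no array, although same-numbered arrays of the cultures deviated together, so the 6 arrays of a cell type are not independent. The 6 CD8 arrays lay below all 6 CD4 arrays for 8 members, namely Stat2, Ifih1, Ifit2, Isg20, Parp14, Iigp1, Igtp and Irgm1, against 2.64% of all genes. They lay above for 1 member, Epsti1, against 1.51% of all genes. Isg20, an exonuclease, differed by -0.40 with and -0.42 without linoleic acid, and Parp14, a mono-ADP-ribosyltransferase, by -0.51 and -0.34. Across the 34 members, the differences in linoleic acid and in control culture correlated at r = 0.90, and at 0.82 without Epsti1, against 0.64 over all genes; this is a description across genes, which are not independent replicates.

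**Figure D2:**
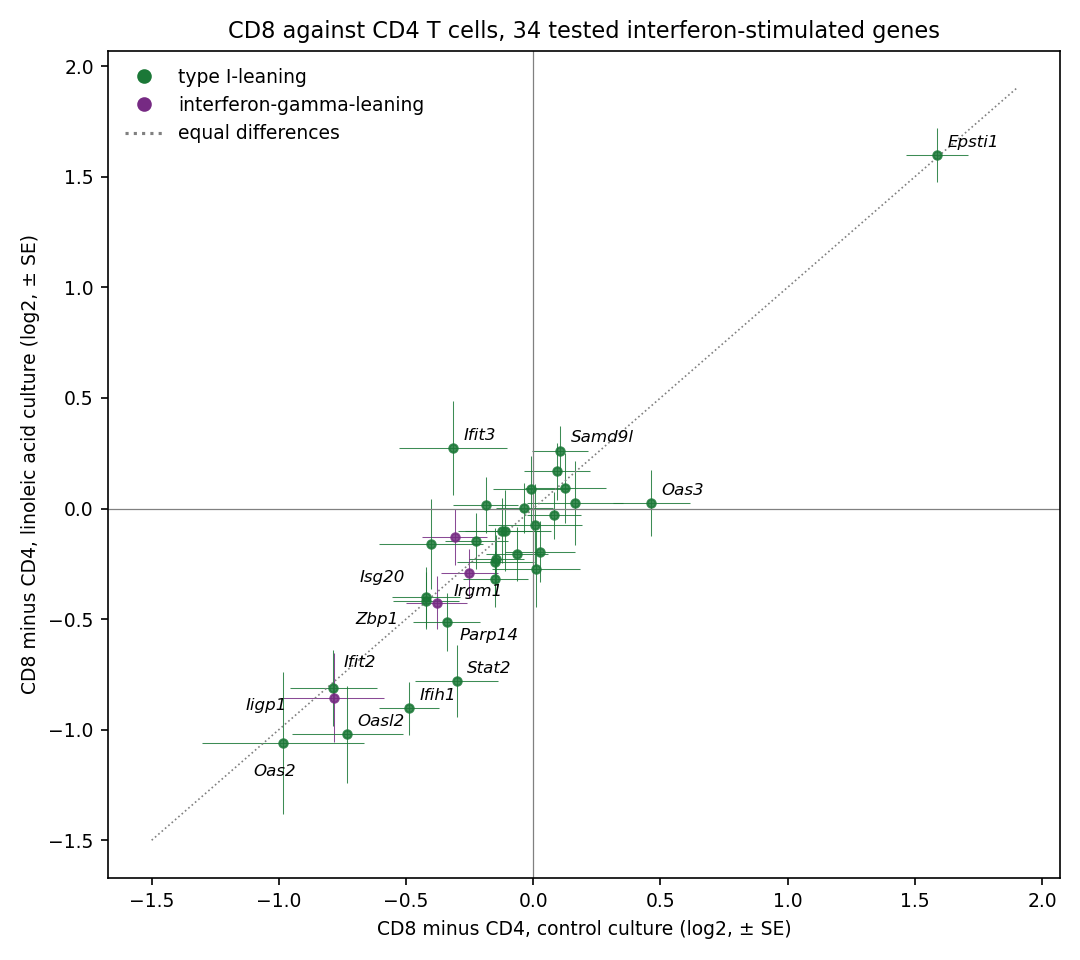
CD8 minus CD4 log2 difference of each of the 34 tested members in linoleic acid culture (y axis) against control culture (x axis), with SE bars, green for type I-leaning and purple for interferon-gamma-leaning members. Epsti1 stands alone at about 1.6 on both axes, and Oas2, Oasl2, Ifih1, Iigp1, Ifit2 and Stat2 lie farthest below 0 on the y axis.

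The replicate numbers deviated together in linoleic acid culture, and with the number as a block 10 of 34 members passed there, 1 higher and 9 lower, against 5.57% of all genes. The members added were Parp14, Irgm1, Oas2 and Zbp1, a sensor of Z-form nucleic acids (block adjusted p = 0.0138, 0.0395, 4.32e-05 and 0.0403). In control culture 7 of 34 passed with the block, against 4.4% of all genes. These were Epsti1, which was higher, and Ifih1, Ifit2, Iigp1, Oas2, Oasl2 and Zbp1, which were lower. In the fit without the block several member calls rested on single arrays. Leaving out 1 array of the compared groups left 2 to 4 members in linoleic acid culture and 1 to 3 in control culture. Over all 14324 genes, 291 calls became 150 to 322 in linoleic acid culture and 280 became 176 to 223 in control culture. In linoleic acid culture 2 members were called without CD4 linoleic acid replicate 2, and 3 without replicate 3 of either cell type. Epsti1 was among them each time, Ifih1 each time in linoleic acid culture, and Ifit2 in control culture only when CD4 control replicate 2 was the one left out.

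Markers of B cells were present on all arrays and moved with these comparisons. The 9 measured B cell markers of 10 listed, among them Cd79a, Ms4a1 and Pax5, averaged log2 6.14 to 6.69 on the 4 arrays numbered 1 and 7.47 to 8.15 on the other 8. Their mean level ran over 6.14 to 7.78 in CD8 and 6.69 to 8.15 in CD4 T cells with linoleic acid, and over 6.17 to 7.62 in CD8 and 6.56 to 7.996 in CD4 T cells without it. All 9 had lower means in CD8 T cells, with median differences of -0.48 with and -0.32 without linoleic acid, and 0 of 9 passed (5 and 4 with the block). Within the arrays numbered 1, where these markers were lowest and each group has a single array, Epsti1 differed by 1.68 with and 1.53 without linoleic acid, Ifih1 by -0.87 and -0.67, Ifit2 by -0.92 and -0.93, Iigp1 by -0.93 and -0.87, Oasl2 by -1.08 and -1.10, and Stat2 by -0.50 and -0.21. The difference of Stat2 was smaller there than over all arrays. The B cell marker mean was lower in CD8 T cells on these arrays too. It was 6.14 in CD8 and 6.69 in CD4 T cells with linoleic acid, and 6.17 and 6.56 without it. Without the arrays numbered 1 in all groups, a choice made after the marker levels were seen, 5 of 34 members passed in linoleic acid culture, Epsti1, Ifih1, Oas2, Oasl2 and Stat2, against 1.56% of all genes. Ifit2 and Iigp1 no longer passed there, and Oas2 was a call that the fit on all arrays did not make. In control culture 2 of 34 passed, Epsti1 and Oas2, against 1.61% of all genes, and Ifit2 no longer did. The part of B cell RNA in the members' values was not tested.

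Of the other cell types a sort could hold, 4 of 4 measured markers of conventional dendritic cells, 6 of 8 of myeloid cells and 2 of 5 of plasmacytoid dendritic cells, Siglech and Klk1, lay below the background gauge. The myeloid markers above it were Cd68, at log2 6.98, and Lyz2, at 6.29. Lyz2 differed between CD8 and CD4 T cells by -0.42 with and -0.62 without linoleic acid (limma adjusted p = 0.738 and 0.736, with the block 0.178 and 0.0451). Of 7 tested myeloid markers, 4 were lower in CD8 T cells with and 6 without linoleic acid. Against control, 7 of 7 were higher with linoleic acid in CD8 and 6 of 7 in CD4 T cells, and 0 passed. All but Cd68 and Lyz2 of these lay below the background gauge. The chemosensory receptor genes behind that gauge were also higher with linoleic acid, at 3.34 against 3.17 in CD8 and 3.23 against 3.18 in CD4 T cells. The part of myeloid RNA in the members' values was not tested. Of the plasmacytoid list, Ccr9, which T cells also express, was higher in CD8 T cells by 1.74 with and 2.20 without linoleic acid (limma adjusted p = 0.00049 and 5.88e-05). Of 3 measured NK cell markers only Klrb1c lay below the gauge. Ncr1 averaged log2 5.55, and Eomes, which CD8 T cells also express, was higher in CD8 T cells by 1.32 with and 1.95 without linoleic acid (adjusted p = 0.00178 and 5.11e-05). Of the sorted cells' own markers, Cd4, Cd40lg and Zbtb7b were lower and Cd8a and Cd8b1 higher in CD8 T cells in both cultures, whereas Runx3 was higher past the threshold in control culture and stood at 0.90 in linoleic acid culture (adjusted p = 0.0829). In bulk RNA fewer cells of a type and less RNA per cell cannot be told apart.

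**Figure D3:**
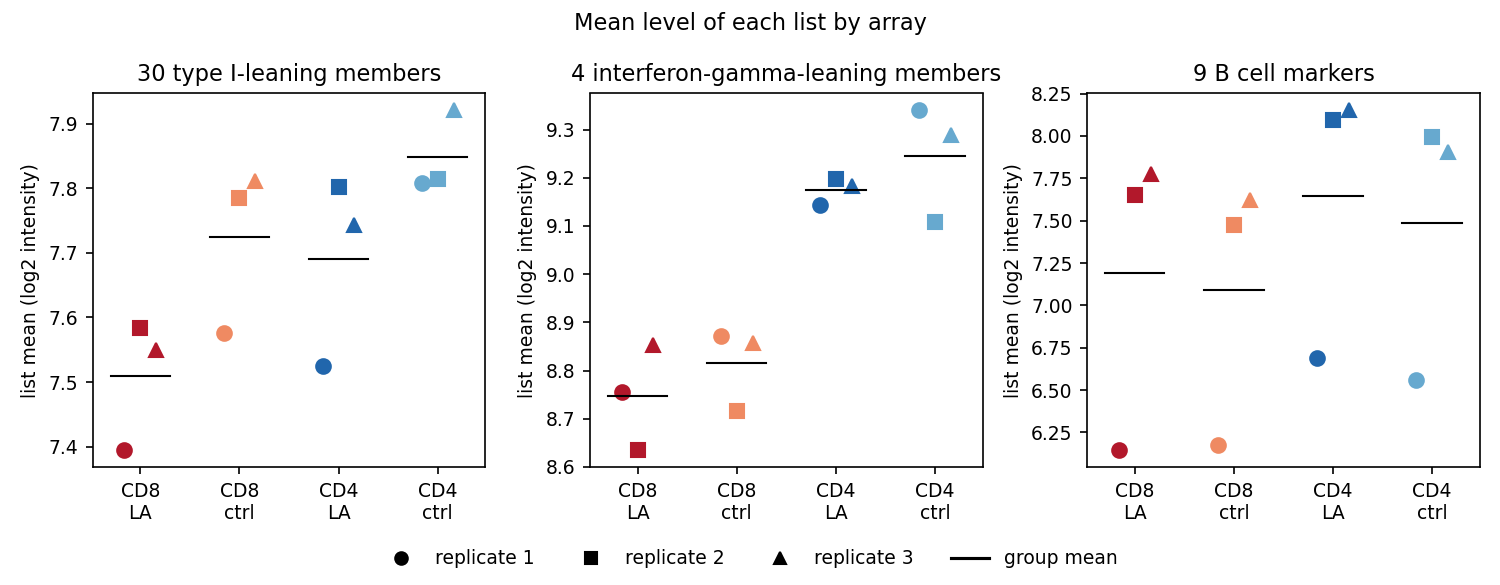
Mean log2 intensity per array of the 30 type I-leaning members, the 4 interferon-gamma-leaning members and the 9 B cell markers, with a line at each group mean. The interferon-gamma-leaning members separate CD8 arrays (up to 8.87) from CD4 arrays (from 9.11), the type I-leaning means overlap between groups, and the arrays numbered 1 are lowest in B cell markers.

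With linoleic acid the members' differences were small and mostly below 0, and no member passed the threshold. The mean difference over both cell types was below 0 for 34 of 34 members (32 of 34 when quantile normalization was repeated), with a median of -0.17 on the log2 scale, against 63.1% of all genes below 0 and a median of -0.04. In that comparison 0 of 34 members and 0.0% of all genes passed, and 8 members had an unadjusted p under 0.05 (limma), all below 0, against 2.94% of all genes. The 4 with the smallest p were Irf7 at -0.25 ± 0.09, Oasl2 at -0.43 ± 0.15, Ifit1 at -0.37 ± 0.14 and Cmpk2, a mitochondrial nucleotide kinase, at -0.31 ± 0.12 (SE; adjusted p = 0.925 for each). With the replicate number as a block 0 of 34 members passed, against 0.182% of all genes, and 13 had an unadjusted p under 0.05, all below 0, against 5.68% of all genes.

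In CD8 T cells 31 of 34 members were below 0, with a median of -0.19 against -0.06 over all genes, where 63.1% lay below 0, and 0 of 34 passed against 0.0% of all genes. An unadjusted p under 0.05 was reached by 7 members, all below 0, against 2.72% of all genes: Ifih1, Oas3, Irf7, Cmpk2, Oasl2, Stat2 and Rsad2. Ifih1 had 6.84, 7.04 and 6.78 with and 7.24, 7.32 and 7.29 without linoleic acid, a difference of -0.40 ± 0.12. Oas3, the long oligoadenylate synthetase, had 6.66, 6.92 and 6.41 with and 6.98, 7.12 and 7.14 without it, a difference of -0.42 ± 0.15. Neither gene's groups overlapped. Irf7 had 7.96, 8.12 and 7.84 with and 8.21, 8.37 and 8.35 without linoleic acid (-0.34 ± 0.13), and Cmpk2 had 6.25, 6.51 and 6.23 with and 6.45, 6.85 and 7.05 without it (-0.45 ± 0.17), with overlap in Cmpk2 and none in Irf7 (adjusted p = 0.757 for all 4). The arrays of the groups did not overlap for 7 members below, against 5.7% of all genes, and for 1 member above against 3.32%. That member was Ifit3, at 6.61, 6.56 and 6.84 with and 6.48, 6.30 and 6.46 without linoleic acid. The shift in CD8 T cells depended on brightness and scaling. With the filter raised to the 60th percentile, the median was -0.18 over 33 members and -0.11 over all 9612 genes. With quantile normalization repeated, the medians were -0.13 and -0.03, and 28 of 34 members were below 0. An unadjusted p under 0.05 (limma) was then reached by 2 members and by 581 of all 14324 genes.

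In CD4 T cells 31 of 34 members were also below 0, with a median of -0.17 against -0.00 over all genes, where 51.4% lay below 0. Again 0 of 34 passed, against 0.0% of all genes, and 1 member had an unadjusted p under 0.05 against 1.84% of all genes on that side. This was Ifit1, an IFIT protein that recognises the cap of foreign RNA, with 7.95, 8.25 and 8.20 with and 8.67, 8.48 and 8.73 without linoleic acid, a difference of -0.49 ± 0.20 (limma adjusted p = 0.9998, and 0.632 with the block). Its groups did not overlap, which held for 4 members below, Zbp1, Ifit1, Oasl1 and Rsad2, the antiviral radical enzyme viperin, against 4.52% of all genes. Oasl1 differed by -0.28 ± 0.15, Zbp1 by -0.23 ± 0.13 and Herc6, the ISG15 ligase of mice, by -0.23 ± 0.13. Much of the shift in CD4 T cells sat on 1 array: without CD4 linoleic acid replicate 1 the median was -0.06 and 26 of 34 members were below 0.

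**Figure D4:**
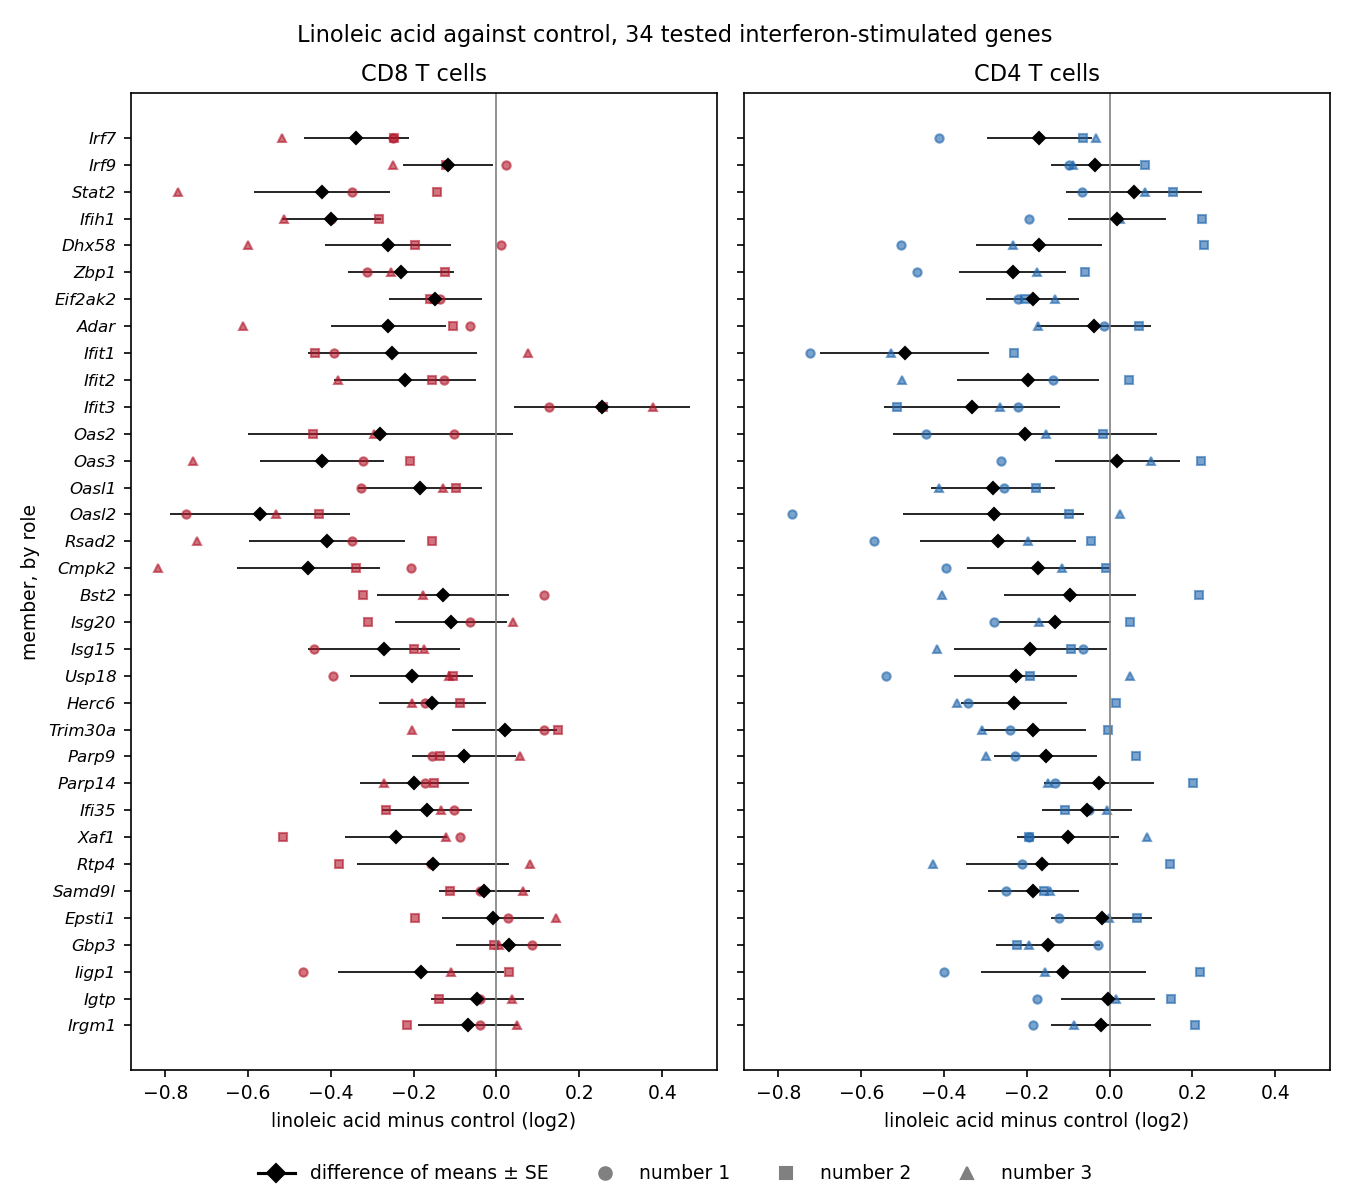
Linoleic acid minus control log2 difference of the 34 tested members, in CD8 (left) and CD4 T cells (right); diamonds with bars are differences of group means with SE, small markers the differences of same-numbered arrays, and members run down the page by role. Most diamonds lie between -0.5 and 0, Ifit3 is above 0 in CD8 T cells, and number 1 gives most of the lowest points in CD4 T cells.

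By role, the median effect of linoleic acid was -0.35 in CD8 and -0.24 in CD4 T cells for the 4 OAS genes, -0.34 and -0.03 for the 3 genes of signalling and transcription, -0.26 and -0.17 for the 5 nucleic acid sensors, and -0.06 and -0.07 for the 4 interferon-gamma-leaning GTPases. It was -0.22 and -0.33 for the 3 IFIT genes and -0.27 and -0.15 for the 4 other effectors. For the 6 genes of ISG15, ubiquitin and ADP-ribose it was -0.18 and -0.19, and for the 5 other induced genes -0.15 and -0.10. The sizes did not follow each other between cell types: across the 34 members the CD8 and CD4 effects correlated at r = -0.06, a description across genes. Both were below 0 for 28 of the 34, against 32.9% of all genes.

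The question of the design, whether CD4 and CD8 T cells respond differently, was tested as the effect in CD4 minus the effect in CD8 T cells. In that test 0 of 34 members passed, against 0.0% of all genes, also with the replicate block, and the member with the smallest p was Ifih1, whose effect was 0.42 ± 0.17 higher in CD4 T cells (limma adjusted p = 0.953). It was the only member with an unadjusted p under 0.05 in that test, against 2.35% of all genes. Its linoleic acid minus control difference was 0.02 in CD4 and -0.40 in CD8 T cells. The next were Stat2 at 0.48 ± 0.23 and Oas3 at 0.44 ± 0.21, and Ifit3 at -0.59 ± 0.30, with effects of -0.33 in CD4 and 0.25 in CD8 T cells. The same quantity is the change in the CD8 to CD4 gap between cultures. Without the block, Ifih1, Stat2, Oasl2 and Iigp1 passed in linoleic acid culture and not in control culture, which was not shown to be a difference between cultures. With the block, Ifih1, Oasl2 and Iigp1 passed in control culture as well (limma block adjusted p = 0.0202, 0.00722 and 0.00218), and Stat2 did not (0.313). The median over members was 0.04 and became -0.03 when quantile normalization was repeated.

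Beside these effects, the B cell marker mean was 7.19 ± 0.91 with and 7.09 ± 0.80 without linoleic acid in CD8 T cells. In CD4 T cells it was 7.64 ± 0.83 with and 7.49 ± 0.81 without it (SD, n = 3). In the mean of both effects 9 of 9 markers were above 0, with a median of 0.12, and 0 of 9 passed. The mean of the chemosensory receptor genes was 3.34 ± 0.16 with and 3.17 ± 0.15 without linoleic acid in CD8 T cells, and 3.23 ± 0.15 and 3.18 ± 0.16 in CD4 T cells. The part of either in the members' values was not tested.

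Other genes of the pathway were read from 6 lists. None of the 9 tested interferon ligands, 13 upstream sensors and factors or 7 feedback inhibitors passed in any comparison without the block. With the block, Tlr9 and Irf2 of the upstream list were lower in CD8 T cells in linoleic acid culture, at -0.48 and -0.53 (block adjusted p = 0.0128 and 0.0451). In that fit 3.79% of all genes and 5 of 9 B cell markers passed as lower. The part of B cell RNA in the values of Tlr9 and Irf2 was not tested. No gene of any of the 6 lists passed for linoleic acid in either fit. Among 8 tested receptors and kinases, Il10rb, a shared chain of the interferon-lambda receptor, was higher in CD8 T cells by 0.70 ± 0.13 with and 0.89 ± 0.13 without linoleic acid (limma adjusted p = 0.0139 and 0.00204). With the block Jak2, a kinase of the interferon-gamma receptor, also passed in linoleic acid culture, at -0.45 (block adjusted p = 0.0301). Ifnar2, a chain of the type I interferon receptor, passed in control culture only, at 8.47, 8.62 and 8.54 in CD8 and 8.12, 7.89 and 8.08 in CD4 T cells (0.52 ± 0.11, adjusted p = 0.0275). That its difference varies between cultures was not shown (0.23 ± 0.16 for the effect in CD4 minus that in CD8 T cells, adjusted p = 0.953).

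Of 51 tested other interferon-stimulated genes, 2 passed and were lower in CD8 T cells in both cultures, where 1.31% of all genes passed as lower with and 0.929% without linoleic acid. Slfn5, a Schlafen family gene, had 5.61, 5.79 and 5.51 in CD8 and 6.72, 6.89 and 6.60 in CD4 T cells with linoleic acid, and 5.96, 6.10 and 6.03 in CD8 and 6.98, 6.86 and 7.09 in CD4 T cells without it, with differences of -1.10 ± 0.12 and -0.95 ± 0.12 (limma adjusted p = 0.000117 and 0.000459). Its groups were far apart beside their spread. The second was Gm4951, at -1.16 ± 0.19 with and -1.0 ± 0.19 without linoleic acid (adjusted p = 0.00326 and 0.00977). Of 26 tested other interferon-gamma-leaning genes, 1 passed, Casp1, the inflammasome protease, at -1.01 ± 0.16 with and -0.96 ± 0.16 without linoleic acid (adjusted p = 0.0032 and 0.00449). Counts of 2 and 1 are too small to compare with the share of all genes. With the block in linoleic acid culture, Slfn1 also passed in the first of these lists, at -0.45, and Gbp11 in the second, at -0.91 (block adjusted p = 0.0246 and 0.0023).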

How the data were processed

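Total RNA of 12 T cell samples was measured on 1 array each, 3 in each of 4 groups. The authors deposited log2 intensities for 41345 probe sets, made with RMA (background correction, quantile normalization and probe summary) per the submitters' processing notes; which software and genome build served is not given in the sources used here. Probe sets were named from the supplied platform annotation: 23525 had 1 symbol, 1810 several and 16010 none. A gene took its probe set of highest mean, and 14324 genes with a mean at or above the 40th percentile of all probe sets (log2 4.28) were tested. Array medians were 4.66 to 4.80, and the number of arrays limits the precision.

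Contrasts of group means were fitted with limma 3.58.1 (lmFit, eBayes, two-sided) in R 4.3.3 on all 12 arrays, unblocked and with 8 residual degrees of freedom; p-values were adjusted by Benjamini-Hochberg over 14324 genes, with a threshold of 0.05. The fit was tested on simulated data. Differences are linoleic acid minus control and CD8 minus CD4. Members past the threshold are named with every array. Otherwise the 4 with the smallest p are named, some with the arrays of 1 cell type or the difference only. Others are given by ranges, counts and roles. Isg20, Parp14, Irgm1, Igtp, Gbp3, Oas2, Ifit3, Rsad2 and Isg15 are given beyond that, chosen after their values were seen. The members and lists were chosen with earlier results of these data known. Same-numbered arrays deviated from group means together (correlations 0.58, 0.26 and 0.52 between CD8 and CD4 in linoleic acid culture, 0.43, 0.19 and 0.42 within CD8, 0.61, 0.19 and 0.32 within CD4), so the numbers were taken to pair arrays there; the labels do not say what they mark. Alternatives were the block, other filters and scalings, a trended robust eBayes, array weights, probe set means, the 6 arrays compared alone, and arrays left out. Promoter windows are RefSeq's.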

Additional observations from a re-analysis of the deposited data

How the results depend on the processing

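No member that passed, or that was among the 4 with the smallest p, reversed direction in that comparison under 18 to 23 alternatives each. The median of the members kept its sign in 113 of 118 alternatives, and the exceptions were all in the difference between the effects. In CD8 against CD4 T cells in control culture, the 2 members past the threshold became 7 with the replicate block, 4 with array weights and 1 with arrays centred on their medians, and 1 to 3 with 1 array left out. Over all 14324 genes the 280 calls became 630, 403 and 223, and 176 to 347 with 1 array left out. Apart from the block calls named above, members in control culture were described from the fit without the block. Same-numbered CD8 and CD4 arrays correlated there at 0.54, -0.01 and 0.42. The block was also used there for cell type markers. In linoleic acid culture, 6 members became 10 with the block, 10 with array weights, 3 with only the 6 arrays compared, and 2 to 6 with 1 array left out. The 291 calls over all 14324 genes became 798, 642 and 138 there, and 150 to 322 with 1 array left out. Leaving out all arrays of 1 number, added after the data were seen, gave 1 to 2 members in control and 1 to 5 in linoleic acid culture, the 1 being Epsti1 in each. Among all genes it gave 65 to 230 calls in control and 62 to 223 in linoleic acid culture. The block changed no call of a member for linoleic acid. The median for linoleic acid in CD4 T cells was -0.17 and ran over -0.24 to -0.06 with arrays left out, the last without CD4 linoleic acid replicate 1 (-0.0627). Over their 18 alternatives, the adjusted p of Epsti1 stayed at or under 0.00801 in control and 0.00537 in linoleic acid culture, and that of Ifih1 in linoleic acid culture ran up to 0.0669, without all arrays numbered 2. Those of Stat2, Ifit2, Oasl2 and Iigp1 ran up to 0.329, 0.351, 0.446 and 0.252. The count of members with an unadjusted p under 0.05 for linoleic acid in CD8 T cells was 7 and ran over 1 to 9. Among all genes tested that count was 728 and ran over 184 to 2545. Ifi35 had a second probe set, near background at log2 4.85, and taking the mean of probe sets moved no count. Values near background are compressed, so differences there may be understated.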

Other observations

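The probe sets of Oas1a, Gbp2 and Dtx3l, which carry a second symbol (Oas1g, Gbp2b and Parp9), were left out of every count. The Gbp2 probe set averaged log2 10.70 ± 0.26 in CD8 and 10.96 ± 0.21 in CD4 T cells with linoleic acid, and 10.73 ± 0.25 in CD8 and 11.12 ± 0.17 in CD4 T cells without it (SD, n = 3). The Dtx3l probe set averaged 8.87 in CD8 and 9.03 in CD4 T cells with linoleic acid, and 9.06 and 9.08 without it.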
